A study of Rattus norvegicus with 12 samples.

Results

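Interleukin 1 beta (Il1b) is an inflammatory cytokine, and rats make natural inhibitors of it and of its relative interleukin 18. Il1b was followed here together with 2 such inhibitors, the IL-1 receptor antagonist (Il1rn) and the IL-18 binding protein (Il18bp), in sensory ganglia with and without local inflammation. The genes were taken by symbol: each of the 3 was measured by 1 probeset assigned to that symbol alone, out of 8260 core probesets (transcript clusters resting on well-supported mRNAs) on the Affymetrix Rat Exon ST 1.0 array, 7603 of which carried exactly 1 gene symbol. The samples were single L5 dorsal root ganglia (DRG), which hold the cell bodies of sensory neurons of a spinal nerve, from 12 adult male Sprague Dawley rats, and 1 ganglion was hybridized to each array. Local inflammation of the DRG (LID) was produced in 6 rats by zymosan, made from yeast cell walls and suspended at 2 mg/ml in an oil adjuvant (incomplete Freund's), of which 10 µl was placed at the ganglion under the intervertebral foramen. The other 6 rats were sham operated, with the foramen exposed in the same way but nothing injected, so the LID group differs from sham by zymosan, adjuvant and the injection together. All ganglia were collected on post-operative day 3, and both groups had undergone surgery.

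IL-1 alpha and IL-1 beta signal through the receptor chain Il1r1 paired with the accessory protein Il1rap. The receptor antagonist occupies Il1r1 without recruiting Il1rap, so no signal follows, and myeloid cells that make IL-1 beta commonly make the antagonist too. IL-18 is held in check differently: Il18bp is a secreted protein that binds the cytokine itself, and in human and mouse cells it is induced by interferon gamma. Both IL-1 beta and IL-18 are made as inactive precursors and are cut by caspase-1 in inflammasomes, so their mRNA does not show how much active cytokine is present. In the DRG, IL-1 beta is known to act on sensory neurons and on satellite glia and to raise neuronal excitability. Il18bp opposes IL-18 and not IL-1 beta, so of these genes Il1rn is the one whose product acts against that of Il1b.

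The promoters of the 3 genes are shown so that the sequence before each start can be read beside the values. All were found among 33469 rat promoters taken from RefSeq on assembly GRCr8, each with 250 bases before and 50 bases after the annotated start of the gene. Capitals mark matches to the motifs searched on both strands: the TATA box TATAAA (14.2% of all these promoters hold it), the C/EBP site TTGCNNAA (10.6%), the interferon-stimulated response element core GAAANNGAAA (3.92%) and the NF-kB site GGGANNNNCC (19.3%). The 100 bases just before the start were as follows, with Il1rn on chr3:27520222-27520321 (plus strand), Il1b on chr3:137036582-137036681 (minus strand) and Il18bp on chr1:165786956-165787055 (minus strand).
Il1rn: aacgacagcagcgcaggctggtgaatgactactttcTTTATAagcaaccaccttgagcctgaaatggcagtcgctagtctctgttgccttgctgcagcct
Il1b: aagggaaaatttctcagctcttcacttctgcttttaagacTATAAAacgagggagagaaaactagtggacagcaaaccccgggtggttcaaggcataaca
Il18bp: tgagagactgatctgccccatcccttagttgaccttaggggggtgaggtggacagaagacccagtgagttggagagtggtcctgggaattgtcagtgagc
A TATA match lay at bases -60 to -55 from the start in Il1b and, read on the other strand, at -64 to -59 in Il1rn, and none was found in the Il18bp window. The other 2 matches lay just after the start, and 30 bases of each are given, chr1:165786906-165786935 (minus strand) for Il18bp and chr3:137036532-137036561 (minus strand) for Il1b.
Il18bp after the start: gggattcctagttcagagaGAAAGTGAAAg
Il1b after the start: cagtcaggcttccTTGTGCAAgtaagactt
The Il18bp match to the interferon-stimulated element core covered bases 40 to 49 after the start. The Il1b match to the C/EBP site, read on the other strand, covered bases 34 to 41. No NF-kB match was found in any of the 3 windows, which says only that these letters are not there. A match in the letters is a description and not a binding site.

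Il1rn and Il18bp rose, with all 6 inflamed ganglia above all sham ganglia for both, and Il1b was higher on average but unevenly so and did not pass the test. Values below are log2 values after each probeset's median over the 12 arrays had been subtracted, so they rank ganglia against each other for 1 gene and hold no level of expression. Differences between LID and sham were tested in limma with p values adjusted over all 8260 probesets by the Benjamini-Hochberg method, and a gene is called at an adjusted p under 0.05. Precision is limited by having 6 arrays in each group. Over the whole array 19.4% of the probesets were called, 7.66% (633) higher and 11.7% (968) lower in LID. The median difference over all probesets was -0.02, and array medians ran from -0.04 to 0.09, with the highest in sham replicate 2. The SD over all probesets ran from 0.15 to 0.27 in the sham arrays. In LID replicates 1 to 6 it was 0.17, 0.26, 0.20, 0.20, 0.14 and 0.16. In whole ganglia, fewer or more cells of a type and less or more RNA per cell cannot be told apart.

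Il1b in sham replicates 1 to 6 was -0.21, -0.09, -0.28, 0.02, -0.03 and 0.15. In LID replicates 1 to 6 it was -0.21, 1.11, 0.75, 0.82, -0.02 and 0.31. The LID ganglia thus fell apart into 4 that lay above every sham ganglion and 2, replicates 1 and 5, that lay inside the sham range. LID replicates 2, 3 and 4, highest for Il1b, also had the widest spread over all probesets among the LID arrays. The part of this array-wide spread in the split was not tested. The spread of Il1b was 0.52 in LID and 0.16 in sham (SD, n = 6 each), and the highest LID ganglion stood 2.50-fold above the lowest. The mean difference was 0.53 (SE 0.20), a 1.45-fold higher mean in LID (95% confidence interval 1.08 to 1.94), with adjusted p = 0.0763 in limma. By an exact two-sided permutation test of this gene alone, over the 924 ways to assign the arrays, p was 0.0411. The call turned on 2 arrays: without LID replicate 1 the difference was 0.67 (adjusted p = 0.0194), without LID replicate 5 it was 0.63 (adjusted p = 0.0412), and it was not called in the other fits that left out 1 array.

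Il1rn in sham replicates 1 to 6 was -0.27, -0.33, -0.73, -0.55, -0.58 and -0.33. In LID replicates 1 to 6 it was 0.27, 2.14, 2.55, 2.77, 0.48 and 1.46. Every inflamed ganglion lay above every sham ganglion, yet the inflamed ganglia differed widely among themselves, with replicates 2, 3 and 4 high, replicate 6 in between and replicates 1 and 5 lowest. For a gene whose groups do not overlap, the highest sham and the lowest LID value mirror each other (here -0.27 and 0.27) because the median was subtracted, so the mirror is no measurement. Il1rn was 4.21-fold higher in LID (2.37 to 7.49), a log2 difference of 2.08 (SE 0.38, adjusted p = 0.00235 in limma), and ranked 8 of all 8260 probesets by size of increase. The SD was 1.06 in LID and 0.18 in sham, and the LID ganglia spanned a 5.65-fold range against 1.38-fold among sham. The probeset summarizes the whole transcript cluster, so secreted and intracellular forms of the antagonist were not separated.

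Il18bp in sham replicates 1 to 6 was -0.65, -0.36, -0.57, -0.75, -0.47 and -0.18. In LID replicates 1 to 6 it was 0.78, 1.05, 0.55, 0.92, 0.32 and 0.18. The groups again did not overlap, and the inflamed ganglia were much closer together than for Il1rn, spanning a 1.82-fold range. LID replicate 1, the lowest inflamed ganglion for Il1b and for Il1rn, was the third highest for Il18bp. Il18bp was 2.19-fold higher in LID (1.76 to 2.72), a log2 difference of 1.13 (SE 0.15, adjusted p = 0.000262 in limma), and ranked 58 by size of increase. For Il1rn and Il18bp alike, the exact permutation test gave 0.00216, the smallest p that 924 assignments allow. Over all probesets, 3.62% had LID values all above the sham values, as both antagonists did.

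**Figure D1:**
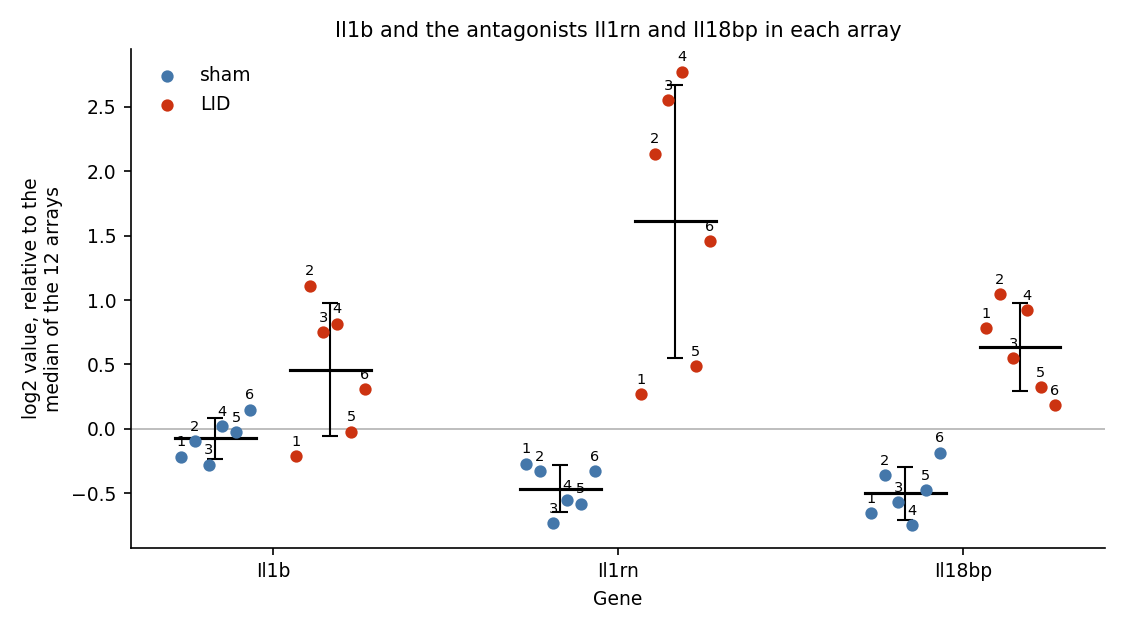
Log2 values of Il1b, Il1rn and Il18bp relative to the median of the 12 arrays (vertical axis), with 1 point per ganglion, its replicate number above it, sham in blue and LID in red. Lines are group means and bars are SD (n = 6); the LID points of Il1rn spread from 0.27 to 2.77 and those of Il18bp from 0.18 to 1.05, while LID replicates 1 and 5 lie among the sham points for Il1b.

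Agonist and antagonists were then compared array by array, by subtracting 1 gene's value from the other's within each ganglion. A shift added to every value of an array cancels in this way, but a wider spread of all its values does not. Since each gene was centred on its own median, the result tells how the balance of 2 array signals moved between ganglia and not which mRNA was more abundant. It stands for the balance of the mRNAs only if both probesets respond alike to a change. The paper describes compression of fold changes on arrays, and whether Il1b and its antagonists are compressed alike was not tested. All 3 pairs were compared, each by the exact two-sided permutation test, and p values were adjusted over the 3. The genes were chosen with earlier results of these same arrays known. The p values of the pairs therefore describe the shifts and are no independent test of them, and the adjustment does not account for that choice.

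Il1rn minus Il1b was -0.05, -0.23, -0.45, -0.57, -0.55 and -0.48 in sham replicates 1 to 6. It was 0.48, 1.03, 1.80, 1.95, 0.51 and 1.15 in LID replicates 1 to 6. The balance stood toward the antagonist in every inflamed ganglion relative to every sham ganglion, also in LID replicates 1 and 5, whose Il1b lay in the sham range. What share of all probesets separates the groups in this way by its difference from Il1b was not counted, here or for Il18bp. The groups differed by 1.54 (SE 0.27), a 2.91-fold shift of the ratio of Il1rn to Il1b array signal (p = 0.00216, adjusted p = 0.00325, exact permutation test). No left-out array brought the difference below 1.38.

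Il18bp minus Il1b was -0.44, -0.27, -0.29, -0.77, -0.45 and -0.33 in sham replicates 1 to 6. It was 0.99, -0.06, -0.20, 0.11, 0.34 and -0.13 in LID replicates 1 to 6. The groups did not overlap, but LID replicate 3 came close to sham replicate 2, and the widest balance was in LID replicate 1, where Il18bp was high and Il1b was not. The shift was 0.60 (SE 0.20), or 1.51-fold (p = 0.00216, adjusted p = 0.00325, exact permutation test). When every probeset was fitted in limma as its difference from Il1b, both antagonists were called higher in LID. All fitted values then share the 12 values of Il1b, and both pairs got the same SE of 0.2426 (0.27 and 0.20 from their own spread). The adjusted p values (9.9e-08 for Il1rn and 0.0383 for Il18bp, limma) thus do not measure the spread of each pair and are not used as support. In this fit 62.3% of the probesets were called in either direction and 0.787% higher.

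Il1rn minus Il18bp was 0.39, 0.03, -0.16, 0.20, -0.11 and -0.14 in sham replicates 1 to 6. It was -0.51, 1.09, 2.00, 1.85, 0.16 and 1.27 in LID replicates 1 to 6. The inflamed ganglia straddled the sham range, with 4 above it, replicate 5 inside it and replicate 1 below it. The mean difference of 0.94 (SE 0.41) did not pass the exact permutation test (p = 0.0541, adjusted p = 0.0541), so an unequal change of the antagonists was not shown by all 12 arrays. Without LID replicate 1 it was 1.24 (p = 0.00649) and without LID replicate 5 it was 1.11 (p = 0.0368, both exact permutation tests).

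**Figure D2:**
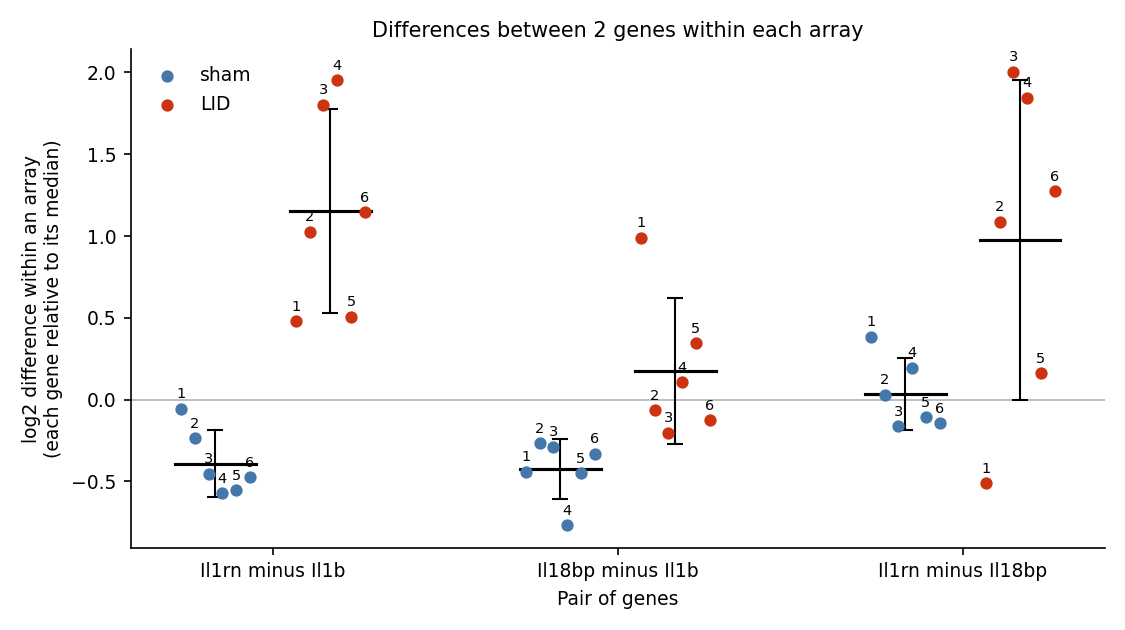
Within-array log2 differences between 2 genes (vertical axis) for Il1rn minus Il1b, Il18bp minus Il1b and Il1rn minus Il18bp, with 1 numbered point per ganglion, sham in blue, LID in red, group means as lines and SD as bars (n = 6). LID points lie above all sham points in the first and second pair, and LID replicate 1 sits at 0.99 in the second and at -0.51 in the third.

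Within the inflamed group the order of the ganglia was set side by side for the 3 genes. From highest to lowest, LID replicates ran 4, 3, 2, 6, 5, 1 for Il1rn and 2, 4, 3, 6, 5, 1 for Il1b, against 2, 4, 1, 3, 5, 6 for Il18bp. Over the 6 LID ganglia, Pearson's r of Il1b with Il1rn was 0.91 (exact permutation p = 0.0208, adjusted p = 0.125 over 6 relations) and Spearman's rho was 0.83 (exact permutation p = 0.0583, adjusted p = 0.35). Without the ganglia farthest from the median of Il1b (replicates 1 and 2), r was 0.999 over the 4 that were left. Il1b and Il18bp gave r = 0.53 (exact permutation p = 0.267) and rho = 0.60 (exact permutation p = 0.242) in LID, and Il18bp and Il1rn gave r = 0.39 (exact permutation p = 0.413) and rho = 0.37 (exact permutation p = 0.497). In the narrower sham group r was 0.29 for Il1b with Il1rn, 0.50 for Il1b with Il18bp and 0.37 for Il18bp with Il1rn, with exact permutation p from 0.313 to 0.581, and rho was 0.26, 0.31 and 0.14 (exact permutation p from 0.564 to 0.803). Without the 2 ganglia farthest from the median of the first gene, r became 0.78 and 0.39 for the other LID pairs and -0.90, -0.08 and 0.04 for the sham pairs. No relation passed the adjustment over the 6, and whether the relations differ from each other was not tested. The LID replicates with the widest spread over all probesets, 2, 3 and 4, were also highest for both Il1b and Il1rn. The part of this array-wide spread in the relations was not tested.

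**Figure D3:**
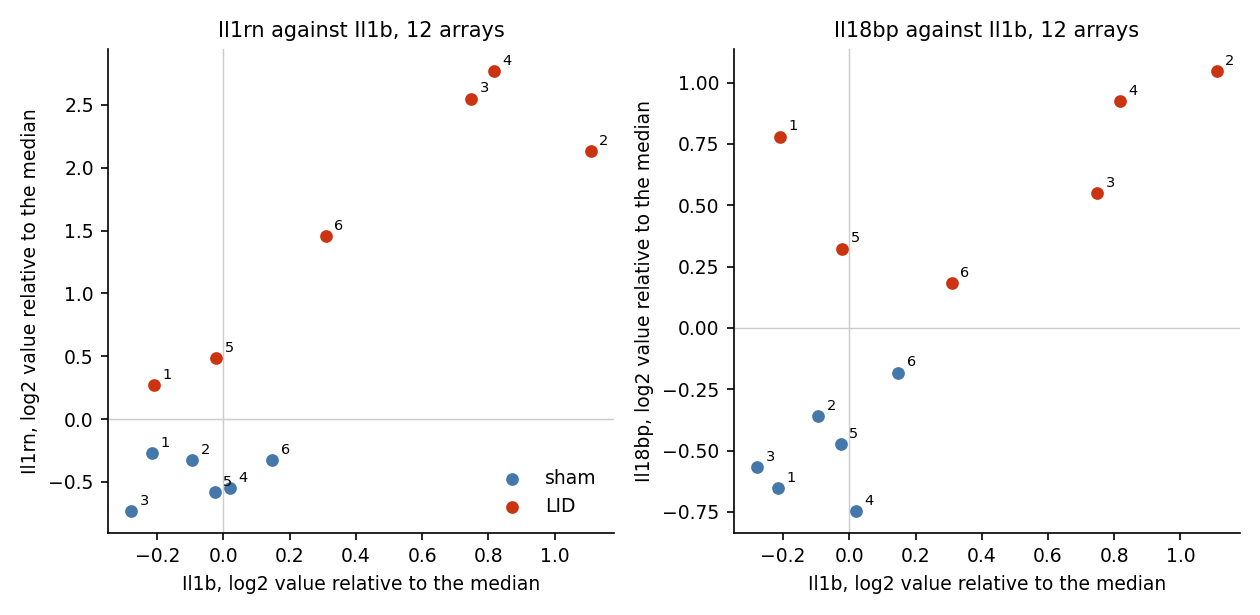
Il1rn (left) and Il18bp (right) against Il1b, all as log2 values relative to the 12-array median, with 1 numbered point per ganglion, sham in blue and LID in red. On the left the LID points climb from replicate 1 (Il1b -0.21, Il1rn 0.27) to replicates 2, 3 and 4, and on the right replicate 1 stands off, with Il18bp at 0.78.

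The genes whose values most resembled each of the 3 were looked up among the other 7602 probesets of 1 symbol, by Pearson's r over the 12 arrays. These r values hold the group difference and share the arrays, and they are given as a description. Il1b was most like Cd69 (0.94), an early activation marker of leukocytes, Clec4e (0.93), a myeloid receptor for microbial glycolipids, Nos2 (0.91), the inducible nitric oxide synthase, Mmp9 (0.91), a gelatinase, and Il1rn itself (0.89). Il1rn was most like Clec4e (0.98), C3h15orf48 (0.97), Mmp9 (0.97), Igsf6 (0.97) and Olr1 (0.97), a scavenger receptor for oxidized LDL. Il18bp was most like Cxcl16 (0.96), a membrane-bound chemokine, Btg1 (0.96), an antiproliferative protein, Gpr37l1 (0.96), a receptor of glial cells, Psmb9 (0.96), an immunoproteasome subunit induced by interferon gamma, and Slc28a2 (0.96), a nucleoside transporter. None of these 5 was among the 5 nearest to Il1rn or to Il1b, although over the 12 arrays Il18bp itself gave r = 0.84 with Il1rn (Il1rn ranked 234 for Il18bp and Il18bp 117 for Il1rn) and r = 0.72 with Il1b (ranks 544 and 147).

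After the group means were subtracted, so that only ganglion-to-ganglion differences within sham and within LID were left, Clec4e stayed near both Il1b (0.92) and Il1rn (0.94). The next for Il1b were Cd69 (0.91) and C3h15orf48 (0.88), and for Il1rn Mmp12 (0.95), the macrophage elastase, came first, followed by Clec4e and Mmp9 (0.92). On this scale Il1rn was the fourth nearest gene to Il1b and Il1b ranked 8 for Il1rn (r = 0.87). Il18bp gave r = 0.36 with Il1rn (Il1rn ranked 1176 for Il18bp and Il18bp 730 for Il1rn) and r = 0.51 with Il1b (ranks 420 and 305). The nearest genes to Il18bp were then Slc12a7 (0.88), a potassium chloride cotransporter, Rhob (0.86), a small GTPase, and Myg1 (0.86).

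Other genes were counted on 7 lists, 5 of the IL-1 and IL-18 systems and the genes IL-1 induces, and 2 of related systems, the interferon gamma response and other cytokine brakes. On the 5 lists, 41 of 78 genes had a probeset of 1 symbol, and 16 of the 41 were called higher in LID, none lower and 25 neither, where 7.66% of all probesets were called higher. Their median difference was 0.20 against -0.02 over all probesets. On the 2 related lists 19 of 30 measured genes were called higher, and with 1 gene on both kinds of list this made 35 of 70 in all. Some of these genes were known from earlier results of these arrays when the lists were made, so the counts describe the lists and test nothing about them.

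The other ligands moved less than the antagonists. Il18, the cytokine that Il18bp binds, was -0.10, -0.08, -0.28, -0.10, -0.03 and -0.16 in sham replicates 1 to 6 and 0.32, 0.25, 0.33, 0.08, 0.03 and 0.03 in LID replicates 1 to 6. The groups did not overlap, with LID all above sham as in 3.62% of all probesets. Il18 was 1.23-fold higher in LID (1.11 to 1.36, adjusted p = 0.00725 in limma). Il33, an IL-1 relative released by damaged cells, was 0.43 higher on the log2 scale (adjusted p = 0.0398). Its call was kept without sham replicate 5, sham replicate 6 or LID replicate 6 and was lost in the other fits that left out 1 array, with adjusted p up to 0.0905. Il1a, the second agonist of the IL-1 receptor, differed by 0.21 (adjusted p = 0.0905 in limma) and was called without sham replicate 2 (0.25, adjusted p = 0.0475) or LID replicate 1 (0.26, adjusted p = 0.0351).

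Both chains of the signalling IL-1 receptor rose. Il1r1, which binds IL-1 and its antagonist, was -0.18, -0.24, -0.14, -0.32, -0.27 and -0.25 in sham replicates 1 to 6 and 0.52, 0.39, 0.35, 0.23, 0.29 and 0.14 in LID replicates 1 to 6. LID replicate 1, lowest for Il1b and Il1rn among the inflamed ganglia, was highest for Il1r1. The gene was 1.47-fold higher (1.34 to 1.61, adjusted p = 7.6e-05 in limma), with little spread in either group. Il1rap, the accessory chain, was 1.26-fold higher (1.13 to 1.39, adjusted p = 0.00562 in limma). Its groups did not overlap, with LID all above sham as in 3.62% of all probesets. The other 5 receptor genes measured did not pass. Their log2 differences were 0.08 for Il1r2, a decoy receptor that binds IL-1 without signalling, 0.05 for Il18rap, the accessory chain for IL-18, 0.00 for Il1rl1, the IL-33 receptor, -0.02 for Il1rl2, the IL-36 receptor, and -0.10 for Il1rapl1, a synaptic relative, and the signs of Il1rl1 and Il1rl2 turned when the arrays were quantile normalized again. Il1rapl1 was called lower without sham replicate 6 (-0.16, adjusted p = 0.0422).

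The machinery that matures IL-1 beta and IL-18 showed called increases in 3 of 7 measured genes, where 7.66% of all probesets were called higher. Casp1, the protease that cuts both precursors, ran from -0.49 to -0.10 in sham (median -0.22) and from 0.10 to 0.49 in LID (median 0.38), and was 1.53-fold higher (1.33 to 1.75, adjusted p = 0.000605 in limma). Pycard, the adaptor that links inflammasome sensors to Casp1, was 1.58-fold higher (1.34 to 1.86, adjusted p = 0.00119 in limma). Neither gene overlapped between the groups, and 3.62% of all probesets had LID values all above sham. P2rx7, the ATP-gated channel that triggers release of IL-1 beta from myeloid cells, was 1.28-fold higher (1.09 to 1.52, adjusted p = 0.0367). Its call was kept without sham replicate 5, sham replicate 6, LID replicate 1 or LID replicate 6 and lost in the other fits that left out 1 array, with adjusted p up to 0.0823. The inflammasome sensor Nlrp3 had no probeset of 1 symbol among those analysed here.

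Below the receptors, 3 of 6 measured signalling genes were called higher, against 7.66% of all probesets. They were the shared adaptor Myd88 by 0.29 (adjusted p = 0.0104 in limma), the kinase Map3k8 by 0.37 (adjusted p = 0.021) and the NF-kB subunit Rela by 0.18 (adjusted p = 0.0226). Map3k8 lost its call without sham replicate 3 (adjusted p = 0.0518), and Rela lost its call when sham replicate 3 (adjusted p = 0.0542), LID replicate 2 (0.0521) or LID replicate 3 (0.0558) was left out.

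**Figure D4:**
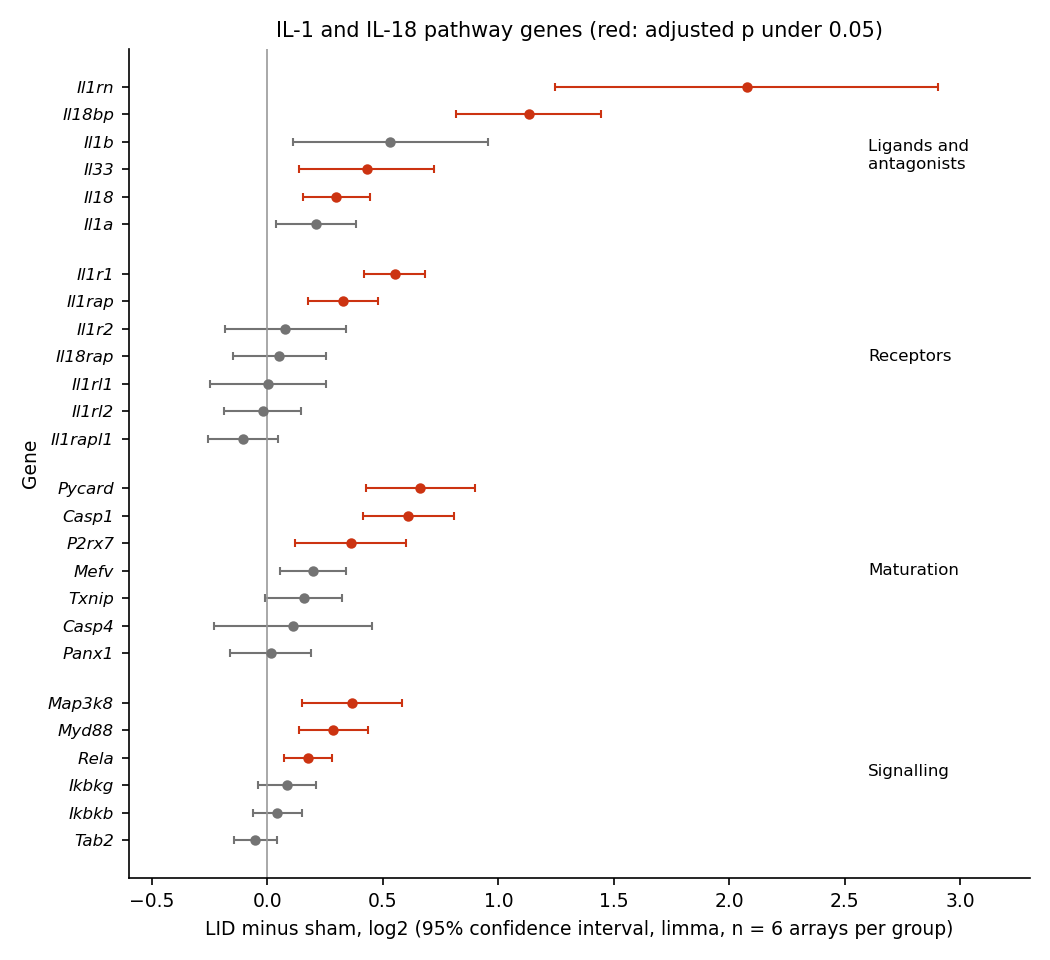
Log2 difference LID minus sham (horizontal axis) with its 95% confidence interval from limma (n = 6 arrays per group) for measured IL-1 and IL-18 ligands and antagonists, receptors, maturation genes and signalling genes, with called genes in red and the rest in grey. Il1rn at 2.08 and Il18bp at 1.13 stand to the right of all others, whose differences do not exceed 0.66.

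Of 18 measured genes that IL-1 is known to induce, 6 were called higher (all probesets 7.66%) and none lower (median difference 0.29). Those with the smallest p were the adhesion molecules Icam1 (0.65, adjusted p = 0.00119 in limma) and Vcam1 (0.55, adjusted p = 0.00398) and the gelatinase Mmp9 (1.52, adjusted p = 0.00883), which was also among the genes nearest to Il1b and Il1rn. Il6, Cxcl1, Ccl2 and Tnf, named whatever their values, did not pass, while Lif, another cytokine of the list, was called (0.46, adjusted p = 0.014, named after its value was seen). Il6 differed by 0.19 (adjusted p = 0.157), Cxcl1 by 0.23 (adjusted p = 0.429), Ccl2 by 0.15 (adjusted p = 0.177) and Tnf by -0.01 (adjusted p = 0.955), and the sign of the last changed under other scalings. Il6 was called without sham replicate 3 (0.27, adjusted p = 0.0165) and Ccl2 without sham replicate 6 (0.20, adjusted p = 0.0351).

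Genes of the interferon gamma response, which is known to induce Il18bp in human and mouse cells, were called higher in 15 of 17 cases. Their median difference was 1.09, and the share called higher over all probesets was 7.66%. Gbp2, a guanylate-binding protein that fights intracellular microbes, was 3.80-fold higher (2.98 to 4.83, adjusted p = 1.82e-05 in limma), Psmb9 was 2.37-fold higher (1.99 to 2.82, adjusted p = 2.7e-05) and Cxcl9, a chemokine for T cells, was 3.54-fold higher (2.69 to 4.67, adjusted p = 3.95e-05). Ifng itself differed by 0.16 (adjusted p = 0.236). The mean of the 17 genes ran from -0.63 to -0.35 in sham ganglia and from 0.37 to 1.18 in LID ganglia, and 1 of the LID ganglia, replicate 2, stood far above the other 5, which reached 0.50.

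Among other cytokine antagonists, decoys and brakes, 5 of 14 measured genes were called higher (all probesets 7.66%) and none lower. Those with the smallest p were Tnfrsf1b, a TNF receptor whose shed form neutralizes TNF (0.77, adjusted p = 0.000931 in limma), Tgfb1, an anti-inflammatory growth factor (0.61, adjusted p = 0.0097), and Il10ra, the ligand-binding chain of the IL-10 receptor (0.58, adjusted p = 0.0118). The median of this list was 0.15, against 2.08 for Il1rn and 1.13 for Il18bp.

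Markers of immune cells moved in part with the groups beside these results. Since no level is left in the values used, which markers were near background could not be seen from them. Over all probesets 7.66% were called higher. Of 11 measured macrophage and monocyte markers 10 were called higher, among them Lyz2 (2.82-fold) and Fcgr3a (2.27-fold), and their mean ran from -0.94 to -0.12 in sham and from 0.20 to 0.93 in LID. Of 6 neutrophil markers 3 were called higher, among them Fcnb (6.87-fold) and Ncf1 (2.05-fold), with means from -0.51 to -0.14 in sham and 0.20 to 0.83 in LID, while S100a8 and S100a9, abundant in neutrophils, differed by 0.00 and 0.07 on the log2 scale (adjusted p = 0.994 and 0.757 in limma). Of 7 T and NK cell markers 3 were called higher, Klrk1 (3.29-fold), Nkg7 (2.24-fold) and Prf1 (1.26-fold), with means from -0.37 to -0.10 in sham and 0.08 to 0.52 in LID. Not called were Cd4 (log2 difference 0.39, adjusted p = 0.0576 in limma), Gzmb (0.24, adjusted p = 0.138), Cd8a (0.20, adjusted p = 0.336) and Cd2 (0.04, adjusted p = 0.682).

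None of 12 sensory neuron genes was called, and Trpv1 (0.15) and Calca (0.14) came closest, with means from -0.12 to 0.04 in sham and -0.12 to 0.13 in LID. Of 10 probesets for 9 satellite glia and Schwann cell genes, 2 were called lower, where 11.7% of all probesets were: Kcnj10 by -0.42 and Slc1a3 by -0.48, with means from 0.02 to 0.09 in sham and -0.26 to 0.07 in LID. Of 4 fibroblast and vessel genes, Pdgfrb was called higher (0.31) and Col1a2 (0.31) was not, with means from -0.33 to 0.16 in sham and -0.18 to 0.37 in LID. Col1a2 (adjusted p = 0.058) was called without sham replicate 1 (0.36, adjusted p = 0.0277) or LID replicate 6 (0.36, adjusted p = 0.0305). Within the LID group the macrophage marker mean gave r = 0.70 with Il1b, 0.51 with Il1rn and 0.75 with Il18bp, with rho of 0.49, 0.26 and 0.77 (exact permutation p from 0.0972 to 0.658). Without LID replicates 2 and 6, farthest from the median of the marker mean, r was 0.57, 0.60 and 0.27. The neutrophil marker mean gave r = 0.70, 0.40 and 0.40 with the same genes in LID, and rho of 0.60, 0.31 and 0.14. The exact permutation p ran from 0.118 to 0.803. Without LID replicates 2 and 3, farthest from the neutrophil median, r became -0.18, -0.27 and -0.76. Of 12 such relations over macrophage and neutrophil means none passed adjustment (lowest adjusted p = 0.421, exact permutation). The part of these cells in the differences of Il1b, Il1rn and Il18bp was not tested.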

How the data were processed

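The authors hybridized RNA of single L5 DRG to Affymetrix Rat Exon ST 1.0 arrays and deposited log2 values, made with RMA16 in GeneSpring GX 11.5 at the level of core transcripts, quantile normalized and then centred on each probeset's median over the 12 arrays. The labels name the build rn4. RNA was isolated with 1 of 2 kits, and the kit of each sample is not given in the sources used here. The deposited values hold no expression level, so they allowed no filter on low values, and all 8260 probesets were tested. The authors did filter on level and published the genes they observed, but that list was not used here. Shares over all probesets may thus include genes below their cutoff. Il1b, Il6, Ccl2, Cxcl1 and Tnf are reported by the authors as detected. All 12 value columns were used.

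Groups came from the sample titles. Differences were fitted with limma 3.58.1 in R 4.3.3 (lmFit and eBayes, two-sided, Benjamini-Hochberg), and permutations and correlations were computed in Python 3.11.15 with scipy 1.17.1. P-values measure the spread between rats. The fit was tested on simulated data and found 90 of 100 changes of 1.5-fold and 99 of 100 of 2-fold among 8260 probesets. Changed probesets were picked at random there, with equal spread in both groups. These shares therefore do not apply to a gene as variable as Il1b (SD 0.52 in LID and 0.16 in sham). Alternatives changed moderation, normalization, array weights, adjustment, probesets tested, pairing and arrays.

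The 3 genes and all lists were chosen with earlier results of these arrays known. Named were the 3 genes, all measured ligands and receptors, the 3 genes with the smallest p in each other list, 2 per marker list, the most similar genes, and Il6, Tnf, Ccl2, Cxcl1, Casp1, Nlrp3 and Ifng whatever their values. S100a8, S100a9, Lif, Prf1, Cd4, Gzmb, Cd8a and Cd2 were named after their values were seen. Promoters came from RefSeq (GRCr8), and array coordinates were not used. Probesets were named through the platform annotation: 409 carried several symbols and 248 none, and 7584 of the 7603 with 1 symbol were found in RefSeq by gene identifier.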

Additional observations from a re-analysis of the deposited data

Results flagged for a closer look

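In 38 groups of 6 values searched for a single array far from the others, 2 had one, and chance gives about 1 in 20 groups. Il18bp minus Il1b in sham replicate 4 was -0.77, below the other 5 sham ganglia, which ran from -0.45 to -0.27. The mean of the interferon gamma genes in LID replicate 2 was 1.18, above the other 5 LID ganglia.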

How the results depend on the processing

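Il1rn, Il18bp and the shifts of Il1rn and of Il18bp against Il1b kept their direction and their side of the threshold under every alternative run. For the shifts this includes the limma fit of differences from Il1b, whose p values are not used as support. Quantile normalizing again, which gives all arrays the same spread, brought Il1rn to 1.70 (SE 0.26), Il1b to 0.44 (SE 0.16) and Il1rn minus Il1b to 1.26. Il1b was called only without LID replicate 1 or 5 (0.40 to 0.67 over left-out arrays) and by the permutation test of this gene alone (0.53), an alternative chosen after seeing the data, and its adjusted p ran from 0.0194 to 0.732 over all alternatives. Il1rn minus Il18bp passed as a difference of medians (1.22, p = 0.039, exact permutation) and without LID replicate 1 or 5 (0.74 to 1.24 over left-out arrays). Higher genes on the 7 lists numbered 19 instead of 35 under the Benjamini-Yekutieli adjustment, a stricter one by construction, and 30 to 37 over left-out arrays; lower ones numbered 0 to 1, with Il1rapl1 lower without sham replicate 6. The cause of the other changes was not tested.

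Of the 58 other genes checked, 31 kept their direction and side of the threshold under every alternative run. Col1a2 gained a call with array medians set to 0, with array weights and without chemosensory receptor probesets (lowest adjusted p = 0.0238). Changes of sign were all in uncalled differences near 0. Quantile normalizing again gave -0.0264 for Il1rl1, 0.00354 for Il1rl2 and 0.00273 for Tnf. Array weights gave 0.0328 for Il1rl2 and 0.0565 for Tnf, and setting array medians to 0 gave 0.00345 for Tnf. Without both replicates numbered 2, Il1rl1 was -0.0501 and Il1rl2 0.00705. Over left-out arrays Il1rl1 ran from -0.0465 to 0.0908, Il1rl2 from -0.0662 to 0.0182, Tnf from -0.0621 to 0.0378 and Rhob from -0.00978 to 0.0960.

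The labels give no pairing of samples by replicate number. Same-numbered deviations correlated from -0.15 to 0.40, and 2 of 6 sham arrays were most like their own number. Without a comparison to other pairings, these values do not settle whether same-numbered samples shared a step. With the number as a replicate block, Il1b stayed at 0.53 (adjusted p = 0.0668 in limma). Il1rn and Il18bp stayed called (adjusted p = 0.00675 and 0.0030 in limma), and 34 genes of the lists were higher. Of the named list genes, Il33, P2rx7 and Rela lost and Il1a gained a call, and changes among the unnamed ones are not given here. Exact sign-flip tests of the pairs gave 0.0313, the smallest possible, for both antagonists against Il1b and 0.0938 for Il1rn against Il18bp. Signal over background cannot be read from the values used here.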
